A study of Mus musculus with 16 samples.

Results

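Described here are 10 genes of the interleukin-1 (IL-1) family in dendritic cell progenitors from the bone marrow (BM) of tumor-free and tumor-bearing mice. They are the ligands *Il1a*, *Il1b* and *Il18*, the receptor antagonist *Il1rn*, the decoy receptor *Il1r2*, and the receptor chains *Il1r1*, *Il1rap*, *Il1rl1*, *Il18r1* and *Il18rap*. They were found by name among the 31093 gene names on 16 arrays, where 14 of 39429 noncontrol probes read them. A probe was tested where some group had 3 or 4 of its 4 arrays flagged well above background, which left 27433 probes in all. Of the 14 member probes, 7 passed this filter, 1 each for 7 of the 10 genes. The family was selected on the measured rise of *Il1r2* in tumor-bearing common dendritic cell progenitors, so that comparison is described below without a test for any member.

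Gene expression was measured in macrophage-dendritic cell progenitors (MDPs), which can still form monocytes and macrophages, and in common dendritic cell progenitors (CDPs), which have turned toward the dendritic cell lineage. Both were sorted from lineage-depleted BM of female C57/Bl6 mice, young adults by the general methods of the study. Tumor-bearing (PyMT) mice carried orthotopic mammary tumors grown to 1.5 cm in diameter from PyMT B6, a single cell line made from the MMTV-PyMT model in which a mammary tumor virus promoter drives the polyoma middle T oncogene. Tumor-free (Normal) mice carried none, and each of the 4 groups had 4 samples, each pooled from a pair of mice.

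IL-1 alpha and IL-1 beta signal through IL1R1 paired with the shared chain IL1RAP, which recruits MYD88 and turns on NF-kB. IL1R2 binds the same ligands but lacks a signaling domain, so it takes ligand and accessory chain away, while the antagonist encoded by *Il1rn* occupies IL1R1 without signaling. IL-18 acts in the same way through IL18R1 and the accessory chain IL18RAP, and IL-33 through the product of *Il1rl1*. In BM, IL-1 is known to drive myeloid progenitors toward granulocytes and monocytes, and *Il1r2* is known as a gene of neutrophils and monocytes.

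The stretches of messenger RNA behind the main results are shown as probe sequences taken from the scanner files. They are the decoy, the antagonist and both IL-18 receptor chains, which allow a brake or chain whose CDP arrays differed to be read beside one whose arrays did not. Capitals mark the stop codon that ends the *Il1rn* reading frame, and the 3 bases after it are left out. The other 3 probes hold a reading frame without a stop codon.
Il1r2: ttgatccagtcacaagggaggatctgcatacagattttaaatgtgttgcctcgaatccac
Il1rn: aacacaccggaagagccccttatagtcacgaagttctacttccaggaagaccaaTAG
Il18r1: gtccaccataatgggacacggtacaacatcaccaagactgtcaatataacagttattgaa
Il18rap: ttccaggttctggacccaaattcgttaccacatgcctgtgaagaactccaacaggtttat

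On mouse build mm9 these probes lie in transcribed sequence of their genes on the plus strand, at chr1:40180014-40180073 for *Il1r2*, chr2:24205094-24205153 for *Il1rn*, chr1:40537851-40537910 for *Il18r1* and chr1:40605729-40605788 for *Il18rap*. The cluster of receptor genes on chromosome 1 holds 8 member probes of 5 genes over 426 kb. In RefSeq order the cluster reads *Il1r2*, *Il1r1*, *Il1rl2*, *Il1rl1*, *Il18r1* and *Il18rap*. *Il1r2* and *Il18rap*, at its ends, were the 2 tested members whose tumor-bearing and tumor-free CDP arrays did not overlap (11.1% of all tested probes did not), whereas *Il18r1*, next to *Il18rap*, overlapped and *Il1r1* and *Il1rl1* were near background.

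The promoters of this outer pair are shown because both genes were higher in tumor-bearing CDPs. They are the 250 bases before the RefSeq start (build GRCm38.p6, plus strand), with motif matches in capitals.
Il1r2, chr1:40085843-40086092: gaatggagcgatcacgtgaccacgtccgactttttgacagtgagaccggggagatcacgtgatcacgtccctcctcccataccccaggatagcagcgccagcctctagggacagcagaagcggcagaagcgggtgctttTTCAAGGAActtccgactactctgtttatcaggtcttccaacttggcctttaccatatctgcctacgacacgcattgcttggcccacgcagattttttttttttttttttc
Il18rap, chr1:40515112-40515361: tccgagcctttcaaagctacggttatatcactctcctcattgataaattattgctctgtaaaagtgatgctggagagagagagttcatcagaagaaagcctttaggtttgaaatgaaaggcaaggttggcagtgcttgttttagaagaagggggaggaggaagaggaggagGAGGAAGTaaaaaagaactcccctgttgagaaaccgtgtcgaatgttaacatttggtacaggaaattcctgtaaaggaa

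Motifs of 4 factors were searched on both strands, and the matches shown overlap no other. The STAT motif TTCNNNGAA was found once in the *Il1r2* window, 111 bases before the start, and in 7.02% of all 32851 windows of this length. The PU.1 motif GAGGAAGT was found once in the *Il18rap* window, 79 bases before the start, and in 2.44% of all windows. Neither window held the C/EBP motif TTGCNNAA (9.56% of all windows) or the NF-kB motif, with GGG and CC at its ends and T at the sixth base (15.9%). The NF-kB letters were found before *Il1rn* and *Il1rap*, the C/EBP letters before *Il1r1* and *Il1rl1*, and the STAT letters also in 1 of 3 windows of *Il18r1*, whose CDP arrays overlapped. A match of letters is not a measured binding site.

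Signals are given as log2 processed intensity minus the 75th percentile of the array's noncontrol spots, so 0 is a bright spot at that percentile. Levels of different probes on this scale cannot be compared with each other. Between 58.8% and 71.5% of probes were well above background on an array, and replicates correlated at 0.904 to 0.977 within groups. The genes used to define these progenitors, *Flt3*, *Csf1r*, *Kit* and *Cx3cr1*, were well above background on all 16 arrays. *Kit* averaged 1.67 in tumor-free MDPs and −0.92 in tumor-free CDPs, and 1.54 and −2.27 in tumor-bearing mice. The summed linear signal of the 4 genes was 33.2 to 37.6 in tumor-free CDPs and 23.9 to 28.0 in tumor-bearing CDPs, without overlap, and 23.9 to 27.6 and 16.5 to 25.7 in MDPs. It moved with the differences of *Il1r2* and *Il18rap* between the CDP groups, and its part in them was not tested. The arrays were run on 4 slides, each holding 1 tumor-free array of either progenitor, while slide 1 held no tumor-bearing CDP array and slide 4 no tumor-bearing MDP array. The lowest share of probes above background was on slide 1 and the highest on slide 4. Deviations from group means had a median r of 0.263 between arrays of different groups on the same slide. Between slides it was −0.069. The main fit has no slide term, and the slide as a block is an alternative fit. The design text of the series counts 4 independent experiments, but no label ties a sample to one of them.

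*Il1r2*, the decoy receptor, was the member that differed most between tumor-bearing and tumor-free CDPs. Its signals in tumor-free CDPs were −3.26, −4.14, −4.45 and −2.10 in replicates 2 to 5. In tumor-bearing CDPs they were 0.26, 1.78, 0.56 and 1.80. Every tumor-bearing array lay above every tumor-free array, and the probe was well above background on all 16 arrays. The difference was 4.59 (SE 0.71) on the log2 scale, or 24.1-fold, from −3.49 ± 1.05 to 1.1 ± 0.81 (SD, n = 4 each). In these sorted pools, more cells that carry an RNA and more RNA per cell cannot be told apart.

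In MDPs the decoy gave a smaller difference that did not pass the test. The tumor-free MDP signals of *Il1r2* were −1.74, −5.23, −2.59 and −2.93, and those of tumor-bearing MDPs −1.88, −0.30, −1.83 and −2.09. The groups overlapped, with only 1 tumor-bearing array above all tumor-free arrays. The change of 1.60 (SE 0.71) had a limma adjusted p of 0.469, and the exact two-sided permutation p was 0.114. It was 0.90 (adjusted p = 0.385) without tumor-free MDP replicate 3, the lowest array, and between 1.19 and 2.06 without any other. The difference between the CDP and MDP changes was 2.99 (SE 1.01), given as a description because it contains the comparison that singled the gene out.

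**Figure D1:**
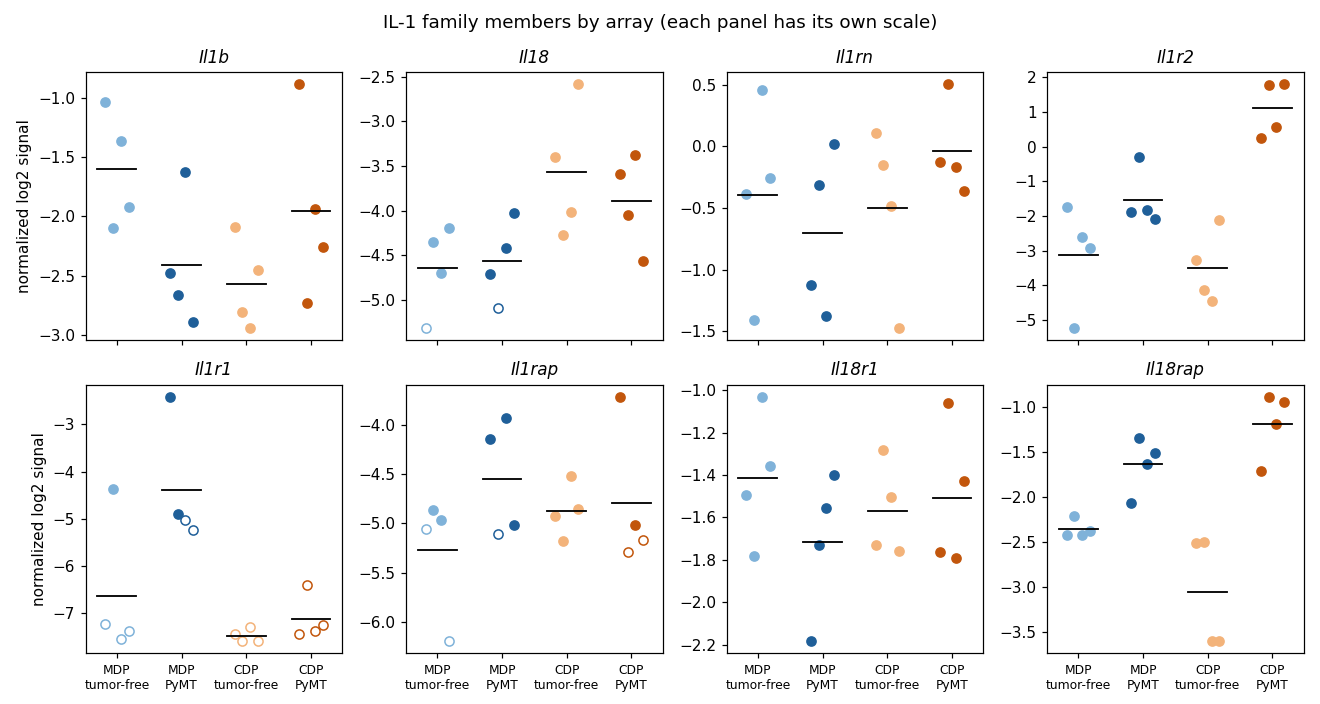
Normalized log2 signal (y axis, own scale per panel) of 8 IL-1 family members on each of the 16 arrays, by group (x axis); filled points are well above background, open points are not, and bars are means of 4 arrays. *Il1r2* and *Il18rap* are the panels in which all tumor-bearing CDP arrays lie above all tumor-free CDP arrays, and *Il1r1* is open on all 8 CDP arrays.

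Between progenitors, *Il1r2* was not ordered in tumor-free mice, where CDPs and MDPs differed by −0.36 (SE 0.71) and the arrays overlapped. In tumor-bearing mice all 4 CDP arrays lay above all 4 MDP arrays (14.1% of tested probes did not overlap there), with a change of 2.63 (SE 0.71), a 6.17-fold difference. From highest to lowest, the means ran from tumor-bearing CDPs through tumor-bearing MDPs and tumor-free MDPs to tumor-free CDPs, and neighbors among the lower groups differed by less than their spread or overlapped. No p is given for either comparison, since each shares CDP arrays with the one that picked the gene.

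The antagonist gene *Il1rn* did not separate tumor-bearing from tumor-free arrays in either progenitor. Its signals were 0.11, −0.15, −0.49 and −1.48 in tumor-free CDPs and −0.12, 0.51, −0.17 and −0.36 in tumor-bearing CDPs. The groups overlapped, with 1 tumor-bearing array above all tumor-free arrays, and the difference was 0.47 (SE 0.43). In MDPs *Il1rn* ran from −1.41 to 0.46 in tumor-free mice and from −1.38 to 0.02 in tumor-bearing ones, a change of −0.31 (SE 0.43, limma adjusted p = 0.757, 95% interval −1.23 to 0.62). With the slide as a block this change was 0.09, so it has no settled direction. CDPs and MDPs differed in *Il1rn* by −0.11 (SE 0.43, adjusted p = 1.0) in tumor-free mice and by 0.67 (SE 0.43, adjusted p = 0.283) with tumors, and the latter was −0.13 with the slide as a block.

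*Il1r1*, the signaling receptor for IL-1 alpha and IL-1 beta, was not well above background on any of the 8 CDP arrays, tumor-bearing or not. Among MDP arrays it passed the background flag on 1 of 4 tumor-free and 2 of 4 tumor-bearing ones, so its probe was not tested. The signals were −7.22, −4.37, −7.53 and −7.37 in tumor-free MDPs and −2.42, −4.91, −5.01 and −5.23 in tumor-bearing MDPs. In tumor-bearing mice the measured signals averaged −4.39 in MDPs and −7.12 in CDPs, and in tumor-free mice −6.63 and −7.47. For a ratio each CDP array was taken at the higher of its own signal and its lowest signal among probes well above background. MDP arrays were left as measured. The MDP mean was then 1.84-fold that of CDPs in tumor-bearing mice, or 1.17-fold without tumor-bearing MDP replicate 2. That array was on slide 1, which held no tumor-bearing CDP array. In tumor-free mice the ratio was 0.397 with only the CDP arrays raised, so it does not mean a lower measured MDP signal. The ratio is no lower bound, since the MDP means include arrays not well above background.

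The *Il1r2* signal minus the *Il1r1* signal on each array was followed across groups. In CDPs it largely restates the *Il1r2* values that chose the family, since *Il1r1* was well above background on no CDP array, so it is no measure of a balance of receptors there. It was 3.99 ± 1.13 in tumor-free CDPs, with a range of 2.84 to 5.47, and 8.22 ± 0.59 in tumor-bearing CDPs, with a range of 7.70 to 9.06 (SD, n = 4 each). The shift was 4.23, beside 4.59 for *Il1r2* alone. In MDPs the measure was 3.50 ± 2.94 in tumor-free mice and 2.87 ± 1.70 in tumor-bearing ones, a difference of −0.64 that was smaller than the spread and was 0.67 under normexp background correction. The mean of *Il1rn* and *Il1r2* minus the mean of the 3 tested receptor chains moved by 1.86 in CDPs and 0.27 in MDPs. In CDPs this measure too holds the *Il1r2* values that chose the family, so nothing is read from its shift there. The chains are *Il18r1* and *Il18rap* of the IL-18 receptor, and *Il1rap*, whose tested probe is listed for a soluble form. With *Il1rn* alone against the same chains the shifts were −0.20 and −0.68, within the spread of the arrays. 

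*Il1rap*, the shared accessory chain, was near background. Its tested probe is listed for the transcript of the soluble form, and the probe of the membrane form was well above background on none of 16 arrays. The soluble-form probe was well above background on 11 of 16 arrays and ran from −6.19 to −3.72. It differed by 0.07 (SE 0.39) between tumor-bearing and tumor-free CDPs. In MDPs the change was 0.72 (SE 0.39, adjusted p = 0.533), but −0.12 under normexp background correction. CDPs and MDPs differed by 0.40 (SE 0.39, adjusted p = 0.810) in tumor-free mice, which was −0.36 under normexp, and by −0.24 (SE 0.39, adjusted p = 0.666) in tumor-bearing mice.

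*Il1rl1*, the IL-33 receptor gene, has 3 probes. Both membrane-form probes were well above background on no array, and the soluble-form probe on 1 array, tumor-bearing CDP replicate 2 (−4.12, against −7.65 to −7.36 in the other 3). *Il33*, the ligand of this receptor, was not well above background on any array either.

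**Figure D2:**
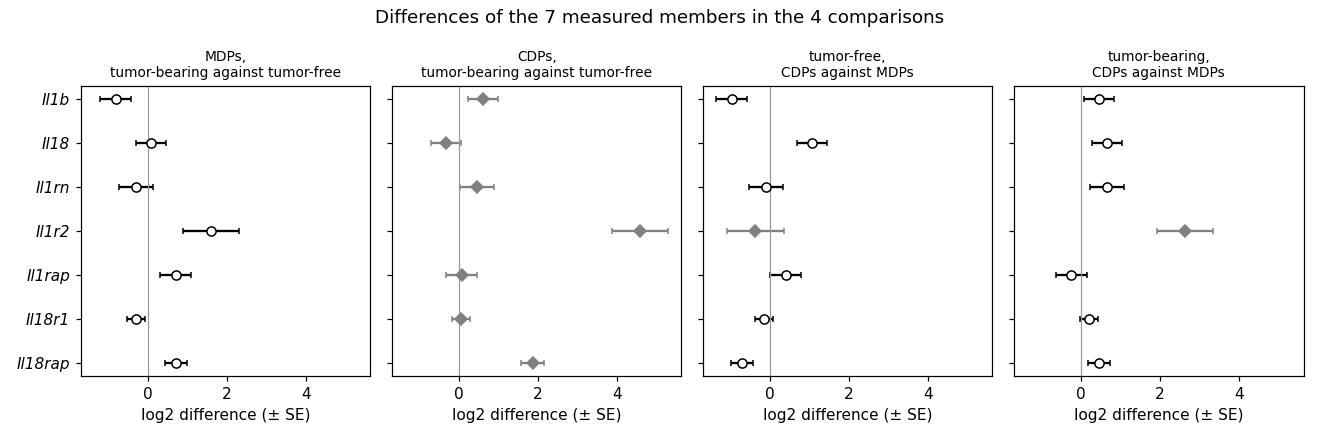
Log2 difference (x axis, ± SE from the limma fit) of the 7 tested members (y axis) in the 4 comparisons, 1 per panel; gray diamonds are descriptions with no test, because of how the family was chosen, and open circles are tested differences that did not pass. *Il1r2* (4.59) and *Il18rap* (1.87) lie farthest from 0 in CDPs, and *Il1r2* (2.63) between tumor-bearing CDPs and MDPs.

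*Il18rap*, the accessory chain of the IL-18 receptor, was the other member whose tumor-bearing and tumor-free CDP arrays did not overlap. It read −2.51, −2.50, −3.59 and −3.60 in tumor-free CDPs. In tumor-bearing CDPs it read −1.71, −0.88, −1.19 and −0.94, so all tumor-bearing arrays lay above all tumor-free ones. The difference was 1.87 (SE 0.28), or 3.65-fold. In MDPs it read −2.42, −2.21, −2.42 and −2.37 without and −2.06, −1.34, −1.63 and −1.5 with tumors. All 4 tumor-bearing MDP arrays lay above all tumor-free ones, and groups that do not overlap were found in 5.21% of tested probes. The MDP change of 0.72 (SE 0.28) reached the smallest exact permutation p that 4 against 4 arrays allow, 0.0286, but its limma adjusted p was 0.424.

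In tumor-free mice the order of *Il18rap* was the other way, with all 4 CDP arrays below all 4 MDP arrays (change −0.69, SE 0.28, adjusted p = 0.193, exact permutation p = 0.0286). Groups that do not overlap were found in 13.3% of tested probes in this comparison. In tumor-bearing mice CDPs were 0.45 (SE 0.28) above MDPs, with overlap and an adjusted p of 0.264. The CDP change exceeded the MDP change by 1.15 (SE 0.39).

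*Il18r1*, the ligand-binding chain of the same receptor, stayed within a narrow range while its partner moved. Its tested probe, listed for a transcript variant, ran from −2.18 to −1.03 over all 16 arrays. Tumor-bearing and tumor-free CDPs differed by 0.06 (SE 0.22), which was −0.09 with the slide as a block. In MDPs the change was −0.30 (SE 0.22, adjusted p = 0.610, 95% interval −0.78 to 0.18). Between progenitors it was −0.15 (SE 0.22, adjusted p = 0.934) in tumor-free mice and 0.21 (SE 0.22, adjusted p = 0.510) in tumor-bearing ones, the latter −0.08 with the slide as a block. The other *Il18r1* probe, listed for another transcript, was well above background on 1 of 16 arrays, so the 2 probes of this gene disagree on whether it was detected.

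Of the ligands, *Il1b* encodes the secreted IL-1 beta precursor made by activated myeloid cells. It was well above background on all 16 arrays. Its signals were −1.03, −2.10, −1.37 and −1.92 in tumor-free MDPs and −2.47, −2.66, −1.63 and −2.89 in tumor-bearing MDPs. Of the tumor-bearing arrays 3 lay below all tumor-free arrays, and the change of −0.81 (SE 0.38) had an adjusted p of 0.486 and an exact permutation p of 0.0857. In CDPs *Il1b* went the other way, from −2.57 ± 0.38 to −1.95 ± 0.78 (SD, n = 4 each), a difference of 0.62 (SE 0.38) with overlap. The CDP change exceeded the MDP change by 1.43 (SE 0.54), again as a description. Between CDPs and MDPs *Il1b* differed by −0.97 (SE 0.38, adjusted p = 0.186, exact permutation p = 0.0571) in tumor-free mice and by 0.46 (SE 0.38, adjusted p = 0.397) in tumor-bearing ones.

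*Il18* encodes the IL-18 precursor and was well above background on 14 of 16 arrays. It ran from −4.27 to −2.58 in tumor-free CDPs and from −5.32 to −4.20 in tumor-free MDPs. Of the 4 CDP arrays 3 lay above all MDP arrays, with a change of 1.07 (SE 0.38, adjusted p = 0.131, exact permutation p = 0.0571). In tumor-bearing mice the change was 0.67 (SE 0.38, adjusted p = 0.240). The tumor differences were −0.33 (SE 0.38) in CDPs and 0.08 (SE 0.38, adjusted p = 0.931) in MDPs, the latter −0.29 under normexp and −0.08 with the slide as a block. *Il1a*, the other IL-1 ligand gene, was well above background on 3 of 16 arrays, 1 of tumor-free MDPs and 2 of tumor-free CDPs, and was not tested.

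Counted together, 0 of the 7 tested members passed the threshold between tumor-bearing and tumor-free MDPs, where 0.0656% of all tested probes did. Of the 7, 2 (*Il1r2* and *Il18rap*) had an unadjusted limma p under 0.05, as had 10.4% of all tested probes. The methods' t-test at its unadjusted threshold called 1, *Il18rap*, and 3.74% of all tested probes, and no member after Benjamini-Hochberg. Between tumor-bearing and tumor-free CDPs 2 of 7 lay past the threshold, as did 1.8% of all tested probes, a description from which nothing is read because the family was chosen on this comparison. The median change of the 7 was 0.08 in MDPs and 0.47 in CDPs, beside −0.12 and 0.08 over all tested probes.

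Between CDPs and MDPs, 0 of 7 members passed in tumor-free mice, where 6.1% of tested probes did, with 3 (*Il1b*, *Il18*, *Il18rap*) at an unadjusted limma p under 0.05, as had 17.1% of tested probes. The methods' t-test at its unadjusted threshold called 1, *Il1b*, and 10.9% of tested probes. In tumor-bearing mice 1 of 7, *Il1r2*, lay past the threshold, as did 7.26% of tested probes, and it did not with the slide or the replicate number as a block. It was also lost in 8 of the 16 fits that left out an array, those without tumor-free MDP replicate 5, tumor-bearing MDP replicates 2, 4 and 5, tumor-free CDP replicate 2, and tumor-bearing CDP replicates 2, 3 and 5. The difference itself stayed between 2.39 and 3.03 in all 16.

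**Figure D3:**
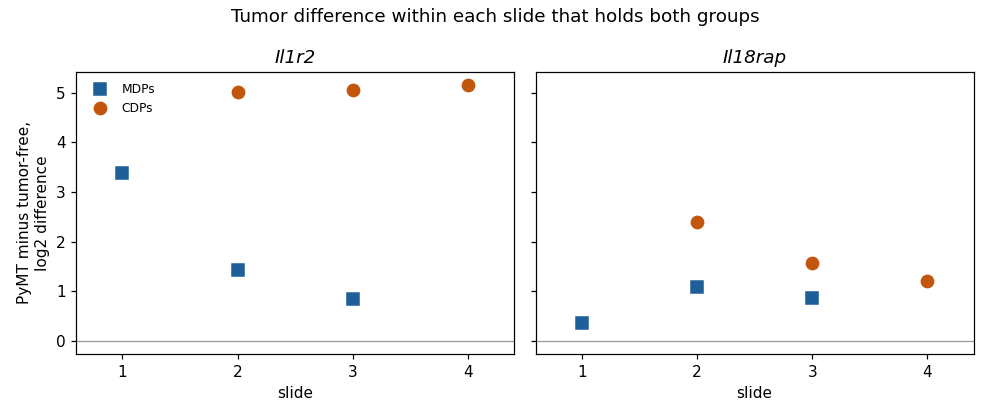
Log2 difference between tumor-bearing and tumor-free arrays (y axis) within each slide (x axis) that holds both groups, for *Il1r2* and *Il18rap*; squares are MDPs and circles CDPs. All 6 differences of each gene are above 0. Those of *Il1r2* in CDPs lie between 5.01 and 5.16, and they leave out its highest tumor-free CDP array (−2.10), on slide 1.

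Within slides, *Il1r2* was higher in tumor-bearing CDPs on 3 of 3 slides, by 5.01 to 5.16, and in tumor-bearing MDPs on 3 of 3 slides, by 0.84 to 3.38. The CDP range leaves out the highest tumor-free CDP array (−2.10, slide 1), and slide 4 averages tumor-bearing CDP arrays at 0.26 and 1.78. The MDP difference of 3.38, on slide 1, is against the lowest tumor-free MDP array, −5.23. The share of all tested probes that kept 1 sign over slides was not counted. *Il18rap* was higher on 3 of 3 slides in CDPs, by 1.2 to 2.40, and on 3 of 3 in MDPs, by 0.37 to 1.08. *Il1b* was lower in tumor-free CDPs than in tumor-free MDPs on 4 of 4 slides, with differences of −1.91 to −0.17, and *Il18* higher on 4 of 4, by 0.43 to 1.77. *Il1rn* was higher in tumor-bearing CDPs on 2 of 3 slides and in tumor-bearing MDPs on 3 of 3, by 0.07 to 0.27, against a change of −0.31 over all MDP arrays.

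Markers of other cell types moved with these groups. The summed linear signal of 9 neutrophil genes (*Cxcr2*, *Camp*, *Ltf*, *Ngp*, *Mmp8*, *Mmp9*, *Retnlg*, *S100a8*, *S100a9*) was 2.53 to 8.64 in tumor-free and 7.85 to 13.1 in tumor-bearing CDPs, and 1.42 to 3.45 and 3.47 to 6.10 in MDPs. *Ly6g*, also planned for this list, was not found among the gene names of the array. On each array 5 to 8 of the 9 were well above background, and *Mmp9* on none. In tumor-bearing CDPs *Mmp8* was higher by 1.87, *S100a8* by 2.19, *Cxcr2* by 0.89 and *S100a9* by 0.88. *Camp*, *Ltf*, *Ngp* and *Retnlg* differed by −0.65, −0.45, −0.25 and −0.27. Tumor-free CDP replicate 2 had a neutrophil sum of 8.64, about that of tumor-bearing CDP replicate 2 (8.68), with *Il1r2* at −3.26 and 0.26. The highest sum and the highest *Il1r2* of tumor-bearing MDPs were both in replicate 3.

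The 8 monocyte and macrophage genes summed to 36.0 to 48.1 in tumor-free and 47.7 to 55.7 in tumor-bearing CDPs. For *Il18rap*, whose product is known from T and NK cells, 10 T cell, NK cell and innate lymphoid genes summed to 1.85 to 2.58 in tumor-free and 2.78 to 3.59 in tumor-bearing CDPs. In MDPs the sum was 13.8 to 18, carried by *Nkg7* (mean log2 signals 3.74 without and 3.91 with tumors). *Nkg7* was the brightest gene of this list in CDPs too, at 0.62 without and 1.13 with tumors, a difference of 0.51. *Cd3e*, *Ncr1*, *Il2rb* and *Nkg7* passed the background flag on 4 of 4 CDP arrays of either group. *Cd3d* and *Cd5* passed on 3 of 4 tumor-free and 4 of 4 tumor-bearing CDP arrays, and *Klrb1c* on 4 and 3. *Cd3g*, which defines T cells, passed on 0 and 2, *Gata3* on 0 and 1, and *Gzma* on 1 and 1. The 9 mast cell and basophil genes summed to 1.57 to 3.83 and 3.59 to 4.98 in CDPs. *Ms4a2* and *Cma1* were well above background on none of 16 arrays, and *Mcpt8*, *Prss34*, *Tpsb2* and *Hdc* on all 16. The 5 erythroid genes summed to 2.56 to 10.7 in tumor-free and 1.70 to 3.97 in tumor-bearing CDPs. The part of any of these lists in the differences of the members was not tested.

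**Figure D4:**
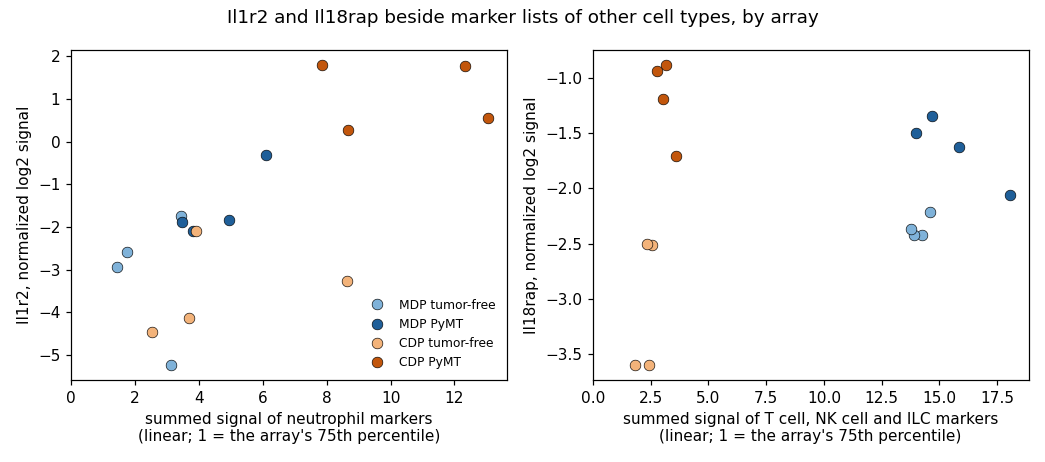
Normalized log2 signal (y axis) of *Il1r2* against the summed linear signal of 9 neutrophil genes and of *Il18rap* against that of 10 T cell, NK cell and innate lymphoid genes (x axes, where 1 is the array's 75th percentile), 1 point per array, colored by group. Tumor-bearing CDPs have the highest *Il1r2* signals and mostly the highest neutrophil sums, and the part of either list in the signals was not tested.

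Genes whose signal ran most like that of *Il1r2* over the 16 arrays were sought among 17197 genes, each by its brightest tested probe. The highest Pearson r were those of *Nlrx1* (0.865), *Soat1* (0.852), *Crispld2* (0.830), *Gsr* (0.829) and *Socs3* (0.823). *Socs3*, an inhibitor of cytokine receptor signaling through STAT3, went from −2.56 to 0.82 in CDPs and from −1.29 to −0.54 in MDPs. *Gsr*, glutathione reductase, went from 2.18 to 3.31 in CDPs and from 2.44 to 2.86 in MDPs. Among members, r with *Il1r2* was 0.748 for *Il18rap* and between −0.12 and 0.33 for the other 8. These arrays fall into the 4 groups and share slides, so the values describe likeness across groups and carry no p.

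The wider pathway was followed in 63 further genes, of which 49 were tested. Of 11 other IL-1 family genes 8 were not tested, and *Il33*, *Il36a*, *Il36b*, *Il36g*, *Il36rn*, *Il1f10* and *Il1rapl2* were well above background on no array. The inhibitory receptor *Sigirr*, the related receptor *Il1rl2* and the IL-18 binding protein *Il18bp* were tested and passed in no comparison. None of the 14 genes of IL-1 maturation and release, 17 of signal transduction or 15 IL-1-induced genes passed as lower in any comparison. In either direction 0.0656% of all tested probes passed in MDPs, 1.8% in CDPs, and 6.1% and 7.26% between progenitors without and with tumors. The share passing as lower was not counted, so nothing is read from these counts.

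*Lcn2*, which encodes the iron-carrier-binding protein lipocalin 2 and is induced by IL-1, was the pathway gene that rose with tumors in MDPs. Its mean went from 0.83 ± 0.43 to 3.0 ± 0.55 (SD, n = 4 each), a change of 2.16 (SE 0.35, adjusted p = 0.0489). The call was lost without any 1 of 15 of the 16 arrays, all but tumor-bearing MDP replicate 5. In CDPs *Lcn2* went from 0.60 ± 0.53 to 3.29 ± 0.55, a difference of 2.70 (SE 0.35). The neutrophil marker sum was 1.42 to 3.45 without and 3.47 to 6.10 with tumors in MDPs, and 2.53 to 8.64 and 7.85 to 13.1 in CDPs. Neither the part of neutrophil content in *Lcn2* nor that of IL-1 was tested. *Casp4*, the caspase that senses intracellular lipopolysaccharide, went from −0.73 ± 0.14 to 0.24 ± 0.15 in CDPs (0.98, SE 0.17) and passed the threshold there with *Lcn2*. The counts for the pathway were thus 1 of 49 in MDPs, where 0.0656% of all tested probes passed, and 2 of 49 in CDPs, where 1.8% did.

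Between progenitors, *Txnip*, a protein that binds the inflammasome sensor NLRP3, was higher in CDPs in tumor-free (0.81, SE 0.14, adjusted p = 0.00355) and tumor-bearing mice (0.66, SE 0.14, adjusted p = 0.0133). In tumor-bearing mice *Nlrp3* itself was higher in CDPs by 0.83 (SE 0.17, adjusted p = 0.00839). The IL-1-induced genes *Nfkbia* and *Nfkbiz* were higher by 1.1 (SE 0.30, adjusted p = 0.0391) and 1.11 (SE 0.24, adjusted p = 0.0118). In tumor-free mice the changes of these 3 genes were 0.51, 0.61 and 0.52 with adjusted p of 0.0930, 0.337 and 0.273. The 4 of 49 pathway genes past the threshold in tumor-bearing mice stand beside 7.26% of all tested probes, and the 1 in tumor-free mice beside 6.1%. The 4 were 2 under normexp and 0 in a fit of only the 2 groups. The 15 IL-1-induced genes had a median change between CDPs and MDPs of 0.69 in tumor-bearing mice, beside 0.19 over all tested probes, and of 0.54 in tumor-free mice, beside 0.02. *Casp1*, which cleaves both cytokine precursors, differed by −0.06 to 0.09 (SE 0.14 each) over the 4 comparisons, and *Myd88* averaged higher with tumors in MDPs (1.22, SE 0.36, adjusted p = 0.293) and CDPs (0.78, SE 0.36) without passing. *Il6*, *Ptgs2* and *Csf3*, further IL-1-induced genes, were well above background on no array.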

How the data were processed

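RNA of 16 sorted progenitor samples was measured on 1-color (Cy5) Agilent mouse arrays. The authors deposited Feature Extraction 11.5.1.1 spot tables, whose processed signal is a spot intensity with its background subtracted and with no scaling from one array to another. The deposited series also includes a table with log2 values of 26793 probes, made by the authors. Its columns were nearest to the quantile-normalized log2 intensity of their own arrays (r of at least 0.9998), with medians of 10.2 to 10.3, and the basis on which its probes were kept is not given in the sources used here. Per the labels, limma was used upstream, with no version given. A flag for signal well above background comes with each spot.

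Control and outlier-flagged spots were left out, log2 intensities of a probe's spots were averaged, and the 75th percentile of each array was subtracted. Each gene was taken by its tested probe with the highest mean. All 16 arrays were fitted with limma 3.58.1 (R 4.3.3) as 4 group means, with Benjamini-Hochberg adjustment over 27433 probes. A call needs an adjusted p under 0.05 and a fold change above 1.5, as in the methods of the study. Single members were also compared by an exact two-sided permutation test (70 relabelings). The fit was tested on simulated data. The members and gene lists were chosen with earlier results of these data known. Genes named are the 10 members, pathway genes past the threshold in any comparison and the 5 genes most like *Il1r2*. The pathway genes *Sigirr*, *Il1rl2*, *Il18bp*, *Casp1* and *Myd88*, the genes below background and the markers were named after their values were seen. Gene names are those of the array design, updated through RefSeq for 28330 probes, of which 1403 changed. The result of 1 marker list is not reported here. The number of arrays limits the precision of every value.

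Alternatives were quantile normalization, median scaling, normexp background correction (offset 50), testing every probe, testing only those detected on all 16 arrays, the value table in place of the scanner files, a block for the slide or for the replicate number, fits of only the groups compared, the methods' t-test, no fold limit, and leaving out each array.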

Additional observations from a re-analysis of the deposited data

Results flagged for a closer look

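Of 72 groups of 4 arrays checked over the member probes and the differences between them, 9 held an array whose gap to its nearest neighbor exceeded 0.829 of the group's range, and chance marks about 1 in 20 groups. *Il1r2* was −0.30 in tumor-bearing MDP replicate 3, against −2.09 to −1.83 in the other 3. *Il1r1* was −4.37 in tumor-free MDP replicate 3, against −7.53 to −7.22, and −2.42 in tumor-bearing MDP replicate 2, against −5.23 to −4.91. Both of these *Il1r1* arrays were on slide 1 and well above background.

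The *Il1rap* probe was −6.19 in tumor-free MDP replicate 5, below background, against −5.06 to −4.86. The soluble-form probe of *Il1rl1* was −4.12 in tumor-bearing CDP replicate 2, against −7.65 to −7.36. A membrane-form probe of *Il1rl1* was −5.60 in tumor-bearing CDP replicate 3, against −7.46 to −7.36, and the untested *Il18r1* probe was −4.90 in tumor-free MDP replicate 5, against −7.58 to −7.27, neither well above background. In tumor-free MDP replicate 3 the *Il1r2* signal minus the *Il1r1* signal was −0.86, against 4.45 to 5.48, and the mean of *Il1rn* and *Il1r2* minus the mean of the 3 chains was −0.37, against 1.72 to 1.93. No cause was tested for any of these.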

How the results depend on the processing

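Of 328 member changes refitted on all arrays, 311 kept their direction and their side of the threshold and 8 turned in sign. Under normexp *Il18* in MDPs was −0.29, and *Il1rap* was −0.12 in MDPs and −0.36 between tumor-free CDPs and MDPs. With the slide as a block *Il18* in MDPs was −0.075, *Il18r1* was −0.086 in CDPs and −0.081 between tumor-bearing CDPs and MDPs, and *Il1rn* was 0.0903 in MDPs and −0.13 between tumor-bearing CDPs and MDPs. Of 28 means of within-slide differences 5 had the other sign, *Il18r1* in CDPs (−0.038) and between tumor-bearing CDPs and MDPs (−0.043), *Il1rap* in CDPs (−0.016), and *Il1rn* in MDPs (0.16) and between tumor-bearing CDPs and MDPs (−0.11). The CDP difference of *Il1r2* stayed between 3.71 and 5.08 and that of *Il18rap* between 1.34 and 1.97.

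The count of members past the threshold between tumor-bearing CDPs and MDPs went from 1 to 0 with the slide as a block, with the replicate number as a block and under the methods' t-test after adjustment. The count in CDPs went from 2 to 1 in a fit of only the 2 groups and to 0 under the adjusted t-test. The unadjusted t-test gave 1 in MDPs and 1 between tumor-free CDPs and MDPs, each from 0. Of the pathway genes in MDPs, the 1 call went to 0 under normexp, without a filter, in the value table, with the replicate block, in the fit of only the 2 groups and under the adjusted t-test, and to 5 under the unadjusted one. In CDPs the 2 calls went to 5 with the slide block and under the unadjusted t-test, to 1 with only the 2 groups and to 0 under the adjusted t-test. Between tumor-bearing CDPs and MDPs the 4 calls went to 2 under normexp, to 0 with only the 2 groups and under the adjusted t-test, and to 7 under the unadjusted one. Between tumor-free CDPs and MDPs the 1 call went to 2 with a filter on all 16 arrays and with the replicate block, to 5 with the slide block and to 8 under the unadjusted t-test. The cause was not tested.

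Leaving out each array in turn turned *Il18* (−0.56 to 0.0013 in CDPs, −0.14 to 0.26 in MDPs), *Il18r1* in CDPs (−0.092 to 0.15), *Il1rap* in CDPs (−0.29 to 0.24), and, between tumor-free CDPs and MDPs, *Il1r2* (−1.07 to 0.10) and *Il1rn* (−0.44 to 0.22). Counts ran from 0 to 1 for members between tumor-bearing CDPs and MDPs, from 0 to 1 for pathway genes in MDPs, from 3 to 5 between tumor-bearing CDPs and MDPs, and from 1 to 2 between tumor-free ones, where 2 were found without tumor-bearing MDP or CDP replicate 3. The *Il1r2* minus *Il1r1* shift ran from 3.85 to 4.73 in CDPs and from −2.09 to 0.14 in MDPs.

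The labels tie no number to an animal, batch or experiment, and in no comparison did all same-numbered arrays deviate together, so the numbers were not taken to pair the samples. Deviations of same-numbered arrays correlated above 0.1 in 1, 3, 0 and 3 of 4 pairs in the 4 comparisons, with r from −0.63 to 0.48. With this replicate block, counts of members were 0 in MDPs and 2 in CDPs. Quantile normalization moved the median change of all probes from −0.12 to 0.0012 in MDPs and from 0.19 to −0.0034 between tumor-bearing CDPs and MDPs. Within-slide differences give no counts, and no second probe of a member passed the filter. Genes near background, *Il1a*, *Il1r1*, *Il1rl1* and *Il1rap*, are limited by signal over background.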
